A study of Homo sapiens with 12 samples.

Results

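DU145 is an epithelial cell line from a prostate carcinoma metastasis. The comparison described here is between DU145KO, in which the integrin α2 gene ITGA2 had been disrupted with Crispr/Cas9, and DU145KO+vector, which is DU145KO carrying the empty plasmid pawneo2 and kept under geneticin. Both lines are α2 negative by label, so they differ in transfection with an expression plasmid and in drug selection, and not in an intended transgene product. All 4 samples of each line were taken, which is 8 of the 12 samples of the series. The other 4 samples come from DU145KO+α2, which carries the α2 cDNA in the same backbone and shares the same ITGA2 disruption. All cells were grown as spheroids in serum-free medium, and total RNA was sequenced as poly-A selected libraries. Of 26485 genes in the count table, 14732 passed the filter on low counts and were tested. Each line was made once, and the sources used here do not say whether either line is a clone or a pool, so a difference between the lines cannot be told apart from a difference between the cells that founded them.

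A plasmid of this kind carries a neomycin resistance gene, whose product inactivates the aminoglycoside geneticin. Geneticin binds ribosomes and blocks protein synthesis in cells without the gene, so a stable line is grown from the few cells that keep the plasmid in their chromosomes. The cells of such a line descend from fewer founders than the parental culture, and plasmid DNA in the cytosol can be sensed as foreign.

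The 8 libraries held between 13948734 and 18375396 counted reads, and the mean totals of the lines did not differ in an exact permutation test (two-sided p = 0.83, with 0.0286 the smallest p that 4 against 4 samples allow). Among the 8 samples, deviations from the line means went together in samples of the same replicate number (correlations of 0.195 to 0.554), so the number was kept as a block in the fit. The study's methods call the replicates independent and biological, without saying which step was repeated, and each line was made once, so the p-values measure the spread between samples of these lines.

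ITGA2, the edited gene at chr5:52989352-53094779 (GRCh38), was transcribed in both lines. Its level in DU145KO replicates 1 to 4 was 21.2, 20.2, 25.8 and 15.7 CPM (counts scaled to the TMM-adjusted total of the tested genes). In the same replicates of DU145KO+vector it was 18.8, 18.2, 20.2 and 13.0 CPM. The samples overlapped, and the transcript was lower in DU145KO+vector by a log2 fold change of -0.23 (SE 0.07, adjusted p = 0.0402 in the quasi-likelihood test of edgeR with Benjamini-Hochberg adjustment over all genes). In DU145KO+α2 the level was 305 ± 33.5 CPM (SD, n = 4). The call on ITGA2 was lost without the block (adjusted p = 0.534) and when DU145KO replicate 1 or 3 or any DU145KO+vector sample was left out (0.0565 to 0.203). The count covers transcript, not the protein that the edit removes. ITGA2 lies between 50 and 60 Mb of chromosome 5, where the median log2 fold change over 28 genes was -0.18. Of these genes 32.1% were lower at an adjusted p below 0.05, against 7.85% of all genes tested. The regional part in the ITGA2 value was not tested.

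The lines differed more often by loss than by gain. A gene was called differentially expressed (DE) at a fold change above 2 and an adjusted p below 0.05. DE were 218 genes, or 1.48% of those tested: 207 were lower in DU145KO+vector (1.41%) and 11 were higher (0.0747%). In 166 of the 218 the samples of the lines did not overlap, against 8.76% of all genes tested (3.96% higher and 4.80% lower without overlap). At an adjusted p below 0.05 and any fold change, 1980 genes (13.4%) were called, of which 823 were higher (5.59%) and 1157 lower (7.85%), and 1762 of these changed by less than 2-fold. The median log2 fold change over all genes was -0.00 after TMM scaling, which centres most genes near 0. Without the block, DE genes numbered 119 lower and 4 higher, and the calls at any fold change 271 lower and 73 higher. Leaving out 1 sample gave 165 to 217 lower and 10 to 18 higher DE genes, with the 18 reached without DU145KO replicate 4. Of the genes lower and DE, 38 had a mean of at least 10 CPM in DU145KO and 111 had a mean under 1 CPM in DU145KO+vector. The gene with the largest fitted change, TMEM178B, was picked for that value: it stood at 2.98, 2.57, 2.40 and 1.58 CPM in DU145KO and at 0, 0.144, 0.0575 and 0.138 CPM in DU145KO+vector (log2 fold change -4.80, SE 0.43, adjusted p = 1.37e-07).

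**Figure D1:**
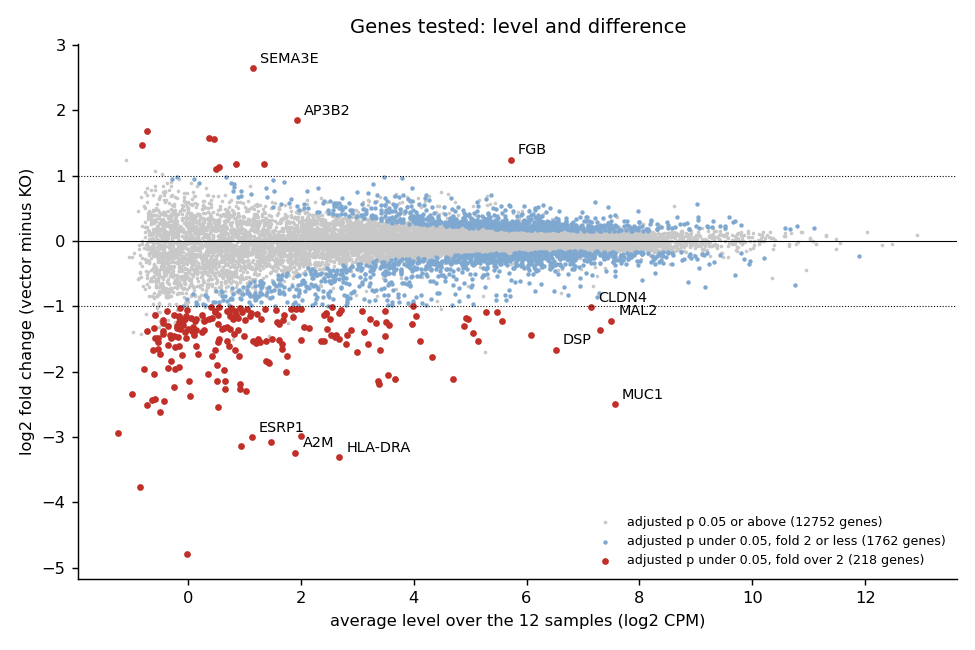
Each point is 1 of the 14732 genes tested, with its average level over the 12 samples in log2 CPM on the x axis and its log2 fold change between DU145KO+vector and DU145KO on the y axis; dotted lines mark a 2-fold change. The 218 DE genes in red lie mostly below the lower line, and MUC1, DSP, MAL2 and CLDN4 are at the abundant end among them.

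Genes of major histocompatibility complex (MHC) class II presentation had the lowest median of the lists of gene functions. Class II molecules are αβ pairs that show peptides from the endosome to CD4+ T cells. The invariant chain CD74 escorts them, HLA-DM loads the peptide, HLA-DO restrains HLA-DM, and the coactivator CIITA, which binds no DNA itself, is recruited to class II promoters by the RFX complex on the X box and by NF-Y on the Y box. Most epithelial cells have little of this machinery unless interferon gamma induces CIITA. Of 15 members tested, 10 fell (66.7%), none rose, and 5 were DE, with a median log2 fold change of -0.80. Without the block 5 of the 15 fell.

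The upstream sequences of 4 class II genes are shown because the list moved in 1 direction and its promoters share known elements. They are the 200 bases before the transcription start in the RefSeq table of GRCh38.p14, 5′ to 3′ on the gene's strand, and are reference sequence, not that of DU145. Capitals mark ATTGG, the core of the Y box, with CTGATTGG, its longer form, which contains it, and part of the X box, each on either strand.
HLA-DRB1, chr6:32589849-32590048, minus strand: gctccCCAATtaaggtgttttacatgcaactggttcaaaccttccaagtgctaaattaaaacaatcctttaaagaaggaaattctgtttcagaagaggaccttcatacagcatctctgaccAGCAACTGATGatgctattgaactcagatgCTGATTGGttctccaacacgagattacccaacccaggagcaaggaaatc
HLA-DMA, chr6:32953098-32953297, minus strand: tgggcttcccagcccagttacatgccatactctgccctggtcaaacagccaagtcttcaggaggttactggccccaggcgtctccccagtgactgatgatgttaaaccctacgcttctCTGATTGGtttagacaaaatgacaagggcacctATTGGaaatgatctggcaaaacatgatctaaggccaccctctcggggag
HLA-DPB1, chr6:33075790-33075989, plus strand: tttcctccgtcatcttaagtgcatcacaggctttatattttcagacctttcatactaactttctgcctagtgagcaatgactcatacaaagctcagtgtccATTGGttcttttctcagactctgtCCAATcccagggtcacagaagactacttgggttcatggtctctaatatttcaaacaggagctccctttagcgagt
HLA-DOB, chr6:32817003-32817202, minus strand: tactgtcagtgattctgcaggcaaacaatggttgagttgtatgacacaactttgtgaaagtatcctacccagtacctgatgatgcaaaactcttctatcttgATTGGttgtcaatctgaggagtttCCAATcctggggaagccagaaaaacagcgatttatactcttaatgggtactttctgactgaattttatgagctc

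The table held promoters for 12 of the 15 members, HLA-DRA and CIITA not among them. In the 250 bases upstream, 9 of the 12 held ATTGG, which occurs in 32.0% of all 35116 promoter windows of that length. CTGATTGG was in 5 of the 12 and in 3.81% of all windows, and the X box pattern was in 3 of the 12 and in 0.937% of all windows. A member was counted if any of its windows held the motif, while the shares are per window, so the units are not alike. HLA-DQB1 and RFX5, which held ATTGG and CTGATTGG, were not among the members that fell. The HLA-DRB1 window held all 3 motifs, and the HLA-DPB1 and HLA-DOB windows held ATTGG on both strands.

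The α chain HLA-DRA (chr6:32439887-32445046) stood at 23.4, 13.7, 12.7 and 13.3 CPM in DU145KO and at 2.72, 1.80, 1.15 and 0.758 CPM in DU145KO+vector. Each DU145KO sample was above every DU145KO+vector sample, and the level was 9.88-fold lower in the vector line (log2 fold change -3.30, SE 0.16, adjusted p = 8.88e-12). HLA-DPA1, the α chain of HLA-DP, went from 8.20, 6.90, 5.47 and 5.85 CPM to 0.831, 1.29, 0.518 and 0.551 CPM (log2 fold change -3.08, SE 0.22, adjusted p = 6.59e-09). Its β chain partner HLA-DPB1 went from 2.45, 1.77, 1.48 and 1.76 CPM to 0.499, 0.718, 0.230 and 0 CPM (-2.37, SE 0.38, adjusted p = 0.000285). The DR and DP chains thus did not overlap between the lines in any of these 3 genes. HLA-DPA1 and HLA-DPB1 overlap on opposite strands over under 2% of their exon bases (1.67% and 1.84%).

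CIITA was itself DE. It stood at 2.91, 2.32, 2.46 and 2.46 CPM in DU145KO and at 1.16, 1.29, 0.805 and 0.758 CPM in DU145KO+vector, with no overlap (log2 fold change -1.33, SE 0.27, adjusted p = 0.00233). The invariant chain CD74 went from 99.3, 72.6, 74.3 and 76.4 CPM to 48.3, 51.1, 38.5 and 42.3 CPM (-0.85, SE 0.11, adjusted p = 0.000493). HLA-DOB, a chain of the HLA-DM inhibitor, was DE with overlapping samples (-1.20, SE 0.20, adjusted p = 0.000512). The loading chains HLA-DMA (-0.64) and HLA-DMB (-0.58) and the β chains HLA-DRB1 (-0.95) and HLA-DRB5 (-0.80) fell by less than 2-fold. HLA-DRB1 and HLA-DRB5 are near-identical copies whose reads may be shared, so their values are uncertain.

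**Figure D2:**
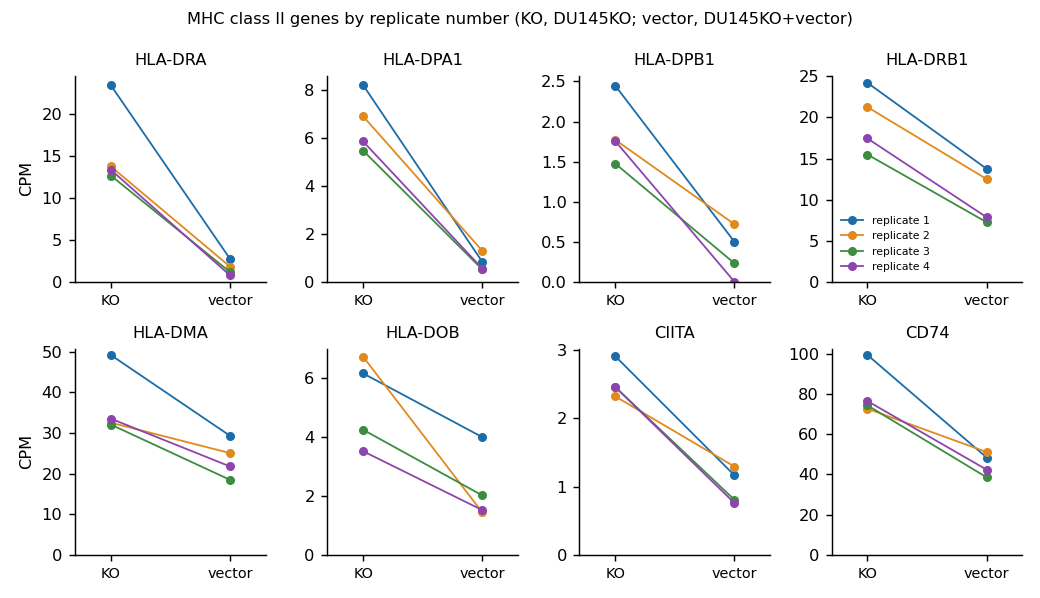
Level in CPM (y axis, from 0, scaled per gene) of 8 MHC class II genes in the DU145KO and DU145KO+vector sample of each replicate number, joined by a line. Every line falls, and replicate 1 of DU145KO is the highest sample in 7 of the 8 panels.

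In DU145KO+α2, made with the same backbone and drug, HLA-DRA stood at 1.63 ± 0.521, HLA-DPA1 at 0.614 ± 0.329, CIITA at 0.825 ± 0.361 and CD74 at 30.2 ± 7.72 CPM (SD, n = 4), set here beside the values above and not tested. The means of HLA-DPB1 (0.509 CPM), HLA-DOB (1.88), HLA-DMA (27.8) and HLA-DMB (5.58) there were also nearer those of DU145KO+vector than those of DU145KO. HLA-DRB1 and HLA-DRB5 were not as low there. HLA-DRB1, at 17.2 ± 4.96 CPM, was nearer its mean in DU145KO (19.6) than in DU145KO+vector (10.3). HLA-DRB5, at 4.22 ± 1.25 CPM, was likewise nearer DU145KO (4.50) than DU145KO+vector (2.63). Replicate 1 of DU145KO was above the other 3 in HLA-DRA, HLA-DMA and CD74. Without the block the calls on HLA-DOB (adjusted p = 0.0764), HLA-DMA (0.0592), HLA-DMB (0.216), HLA-DRB1 (0.0730) and HLA-DRB5 (0.134) were lost, and HLA-DMB was also lost without DU145KO replicate 1 (0.0667). The gene length implied by the deposited values was 10372 bases for HLA-DRA against 1244 exon bases in GENCODE, so the authors' annotation may count several copies of the locus, and levels of HLA genes are not compared with other genes here.

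Class I presentation, in which peptides cut by the proteasome are carried by the TAP transporter and trimmed by ERAP1 and ERAP2, moved in the same direction by smaller amounts. Of 18 members tested, 11 fell (61.1%), none rose and none was DE, with a median log2 fold change of -0.25. ERAP1 fell by 0.46 (SE 0.06, adjusted p = 3.03e-05) and ERAP2 by 0.51 (SE 0.07, adjusted p = 6.31e-05) on the log2 scale. The immunoproteasome subunit PSMB9 fell by 0.98, its partner PSMB8 by 0.43 and the transporter subunit TAP1 by 0.51. Of the heavy chains, HLA-B fell by 0.41, HLA-C by 0.30 and HLA-E by 0.23. Without the block 3 of the 18 fell, and ERAP2 (adjusted p = 0.0571), PSMB8 (0.103), HLA-B (0.181), HLA-C (0.283) and HLA-E (0.450) lost their calls. HLA-E was also lost without replicate 1 of DU145KO (0.0892) or of DU145KO+vector (0.0591). Leaving out 1 sample gave 7 to 12 members lower.

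Of 38 interferon stimulated genes tested, 10 fell (26.3%), none rose and 28 did not pass, with a median of -0.18. The growth restraining factor SAMD9 went from 23.2, 13.3, 13.8 and 15.5 CPM to 9.48, 6.39, 5.24 and 4.13 CPM, without overlap (log2 fold change -1.39, SE 0.12, adjusted p = 1.24e-07). Its neighbour and paralog SAMD9L (-2.04, adjusted p = 0.00997) and the GTPase GBP1 (-1.07, adjusted p = 0.0172) were the other DE members, both with overlapping samples. The call on SAMD9L was lost without the block (adjusted p = 0.106) or without DU145KO+vector replicate 3 (0.0591). GBP1 was lost without the block (0.249) and without each of 6 samples, namely replicates 1, 2 and 3 of both lines (0.0501 to 0.158). Without the block 2 members fell, and leaving out 1 sample gave 3 to 11.

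Among 19 cytokines and chemokines, 4 fell (21.1%) and 1 rose (5.26%), where 7.85% of all genes tested were lower and 5.59% higher. Without the block 1 fell and none rose. The neutrophil attractant CXCL5 fell by 1.42 on the log2 scale (SE 0.24, adjusted p = 0.000418) and the TNF family ligand TNFSF15 by 1.03 (SE 0.25, adjusted p = 0.00883), and neither overlapped between lines. TNFSF15 lost its call without the block (0.0899), without DU145KO+vector replicate 3 (0.0587) and without DU145KO+vector replicate 4 (0.0520). Of 14 NF-kB feedback genes 1 fell (7.14%, near the share of all genes), the apoptosis inhibitor BIRC3 (-0.37, adjusted p = 0.00347, and 0.0592 without the block). NFKB1 differed by 0.15 (adjusted p = 0.119).

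Of the DE genes with the largest changes or the most reads, several lay outside the lists above. MUC1, a transmembrane mucin of the apical surface with the most reads of the DE genes, stood at 624, 553, 283 and 215 CPM in DU145KO and at 102, 75.2, 57.6 and 51.8 CPM in DU145KO+vector. It ranged from 215 to 624 CPM within DU145KO, yet its lowest sample there was above the highest of DU145KO+vector (log2 fold change -2.50, SE 0.35, adjusted p = 0.00645). WFDC2, a secreted protein of the whey acidic protein family, went from 26.3, 23.3, 14.9 and 17.6 CPM to 6.10, 5.10, 3.68 and 2.96 CPM (-2.19, SE 0.13, adjusted p = 3.79e-10). Its family member SLPI, a secreted inhibitor of leukocyte proteases, lies near it on chromosome 20 and went from 32.0, 27.1, 22.9 and 12.8 CPM to 10.03, 4.596, 5.12 and 3.17 CPM (-2.05, SE 0.17, adjusted p = 4.38e-06).

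The protease trap A2M, α2-macroglobulin, went from 10.5, 7.45, 10.9 and 3.98 CPM to 1.83, 0.575, 0.978 and 0.0689 CPM (log2 fold change -3.24, SE 0.23, adjusted p = 6.59e-09). The chitinase-like secreted protein CHI3L1 fell by 2.14 (SE 0.13, adjusted p = 5.31e-10, and 0.0652 without the block). The calcium binding protein S100A9 went from 45.6, 20.3, 10.7 and 20.1 CPM to 8.20, 4.52, 4.26 and 4.41 CPM (-2.10, SE 0.28, adjusted p = 0.00362). TREM1, an immune receptor, differed in the same direction without overlap (-2.29, SE 0.58, adjusted p = 0.0333). Its call was lost without DU145KO replicate 1 or without replicate 2, 3 or 4 of DU145KO+vector (0.0909 to 0.118). In DU145KO+α2 the means were 77.5 ± 17.9 CPM for MUC1, 6.17 ± 0.176 for WFDC2, 5.27 ± 0.841 for SLPI and 1.87 ± 0.707 for A2M (SD, n = 4), a description with no test. S100A9 stood there at 8.51 ± 2.14 CPM. CHI3L1, at 10.9 ± 4.98 CPM, lay between its means in DU145KO (16.1) and DU145KO+vector (3.59). TREM1, at 2.82 ± 1.18 CPM, was not lower than in DU145KO (2.49), against 0.486 CPM in DU145KO+vector.

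**Figure D3:**
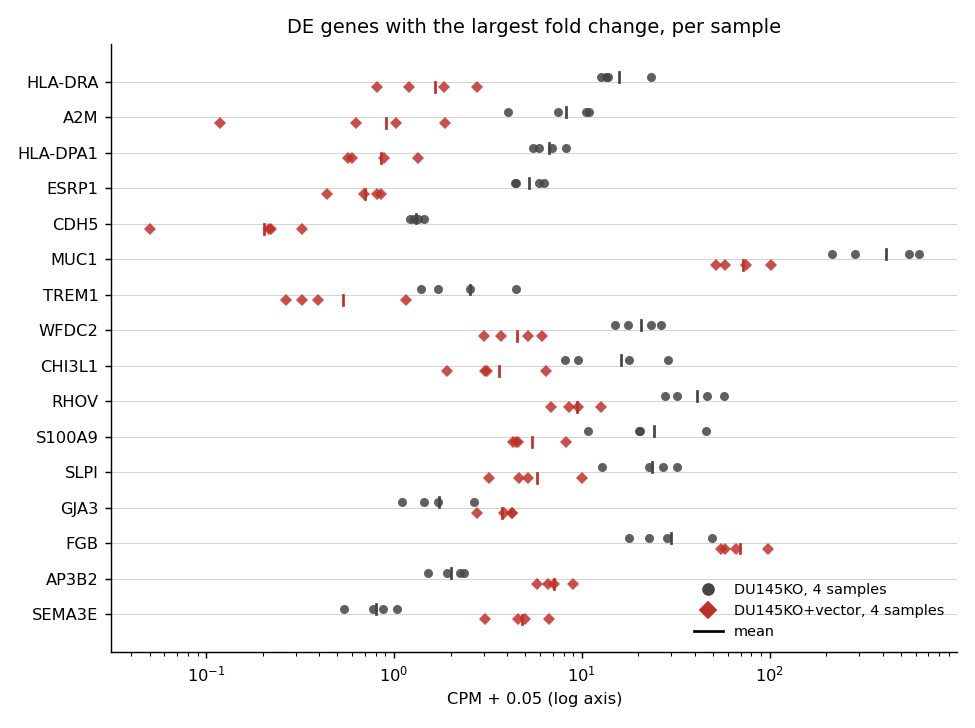
CPM plus 0.05 on a log axis for the 12 lower and 4 higher DE genes with the largest fold change among those with an average of at least 1 log2 CPM over all 12 samples and no overlap between lines. CDH5 reached that average through DU145KO+α2 (9.90 CPM), against 1.27 CPM in DU145KO and 0.154 CPM in DU145KO+vector. Circles are the 4 DU145KO samples, diamonds the 4 DU145KO+vector samples and ticks the means. The genes were chosen for not overlapping. On this axis the gap is narrow in GJA3, FGB, TREM1, CHI3L1, SLPI and S100A9 and wide in HLA-DRA, HLA-DPA1, ESRP1, CDH5 and SEMA3E.

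Epithelial identity is held by splicing factors, transcription factors and adhesion complexes that oppose each other's mesenchymal counterparts. Of 19 epithelial-mesenchymal regulators tested, 8 fell (42.1%) and 3 rose (15.8%), and 5 were DE. ESRP1, a splicing regulator of epithelial isoforms, went from 4.43, 5.87, 6.21 and 4.33 CPM to 0.388, 0.646, 0.805 and 0.758 CPM (log2 fold change -3.00, SE 0.23, adjusted p = 1.22e-08). ST14, the membrane serine protease matriptase, went from 40.4, 29.6, 27.2 and 41.6 CPM to 13.9, 10.6, 13.3 and 9.64 CPM (-1.53, SE 0.15, adjusted p = 7.32e-05), and its inhibitor SPINT1 fell by 0.83 (adjusted p = 5.24e-08). MAL2, a protein of apical transport (-1.22), and OVOL2, a transcriptional repressor (-1.73), were DE with no overlap. ZEB2, a repressor of epithelial genes, was the DE member that was higher: it stood at 0.860, 0.489, 0.369 and 0.644 CPM in DU145KO and at 1.66, 1.80, 1.09 and 2.62 CPM in DU145KO+vector (1.58, SE 0.32, adjusted p = 0.00217). The 5 DE members kept their calls without the block. GRHL2, a further epithelial factor, was under the filter in both lines, at 4 reads or fewer per sample.

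Junction genes moved in part, where 7.85% of all genes tested were lower and 5.59% higher. Of 20 tight junction genes tested, 6 fell (30%) and 2 rose, against 4 and 0 without the block. The claudins CLDN7 (29.1, 26.3, 28.7 and 25.8 CPM in DU145KO, 12.6, 11.9, 14.6 and 10.5 CPM in DU145KO+vector; log2 fold change -1.15, adjusted p = 6.72e-08) and CLDN4 (-1.01, adjusted p = 1.25e-07), which seal the space between cells, were DE. So was the junctional adhesion molecule JAM3 (-1.67, adjusted p = 0.00302), 35.6% of whose exon bases overlap NCAPD3 on the other strand. In DU145KO+α2 the means were 174 CPM for CLDN4 and 18.6 CPM for JAM3, not below those of DU145KO (167 and 9.42). CLDN7, at 9.26 CPM there, was below DU145KO (27.5). These levels in DU145KO+α2 were not tested. Of 12 desmosome genes 3 fell and 1 rose. Desmoplakin, encoded by DSP, which anchors keratin filaments to desmosomes, stood at 161, 186, 150 and 152 CPM against 53.3, 64.0, 46.0 and 42.7 CPM (-1.67, SE 0.08, adjusted p = 9.44e-09), with a wide gap between the lines. PERP, a desmosome membrane protein, fell by 0.42 (adjusted p = 0.000158, and 0.0561 without the block). Of 10 keratins 2 fell, KRT81 (-1.35, adjusted p = 7.36e-06) and KRT86 (-1.14, adjusted p = 0.00283), hair keratins whose near-identical copies may share reads. The simple epithelial keratin KRT18 differed by -0.15 (adjusted p = 0.158) and passed without DU145KO replicate 2 (-0.24, adjusted p = 0.0101).

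Of 8 cadherins and catenins 2 fell (25%) and 1 rose (12.5%), against 7.85% and 5.59% of all genes tested. E-cadherin, encoded by CDH1, differed by -0.43 (SE 0.19, adjusted p = 0.192) with no overlap between the lines. It passed when the 8 samples were fitted alone (adjusted p = 0.0329) or with voom and limma (0.0288). CDH5, the vascular cadherin and a gene that the study singled out, was near the limit of detection: it had 19 to 21 reads per sample in DU145KO and 0 to 4 in DU145KO+vector (-2.98, SE 0.39, adjusted p = 2.49e-05), while DU145KO+α2 had 9.90 ± 1.89 CPM. The linker CTNNA1 fell by 0.23 (adjusted p = 0.00719, and 0.191 without the block). Without DU145KO+vector replicate 3 the call on CTNNA1 was also lost (0.0578).

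The labelled cell type was checked against markers. All 7 markers of simple epithelium were expressed, at a summed 1411 to 1830 CPM in DU145KO and 1214 to 1507 CPM in DU145KO+vector, and 3 of them fell, CLDN4, CLDN7 and EPCAM (-0.83, adjusted p = 0.000760). Leukocyte markers summed to 53.5 to 86.7 and 59.8 to 85.01 CPM and were carried by CD68, a lysosomal gene also present in other cells (0.09, adjusted p = 0.353), with CD14 at 1.27 to 2.63 CPM. The defining leukocyte genes PTPRC, CD3E and MS4A1 had at most 1 read in any of the 8 samples. Fibroblast markers summed to 9.71 to 12.8 and 9.12 to 12.4 CPM, nearly all COL1A1 (-0.20, adjusted p = 0.266), with LUM at 0 and DCN at 0 or 1 read. Endothelial markers summed to 4.09 to 5.21 CPM in DU145KO and 1.38 to 2.83 CPM in DU145KO+vector, with VWF at 0 to 4 reads, and the members that fell were CDH5 and KDR (-1.09, adjusted p = 0.00857, and 0.0698 without the block).

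Adhesion to matrix runs from integrins through actin linkers of the focal adhesion. Of 22 integrins and discoidin receptors tested, 4 fell (18.2%) and 1 rose (4.55%), and none was DE. Over all genes tested 7.85% were lower and 5.59% higher. The collagen receptors DDR1 (log2 fold change -0.49, SE 0.06, adjusted p = 5.95e-06) and ITGA1 (-0.40, SE 0.08, adjusted p = 0.00374), and ITGB1 (-0.23, SE 0.06, adjusted p = 0.0169), the β chain shared by α1 and α2, fell. ITGA1 (0.160) and ITGB1 (0.422) lost their calls without the block, and ITGB1 also without DU145KO replicate 2 or replicates 1, 3 or 4 of DU145KO+vector (0.0633 to 0.0839). Of 30 focal adhesion genes 4 rose (13.3%) and 3 fell (10%). Without the block 1 integrin list member fell, and 1 focal adhesion gene fell and none rose. TNS4, a tensin at the tail of β integrins, went from 6.55, 4.46, 2.46 and 2.40 CPM to 0.776, 0.287, 0.345 and 0.344 CPM (-3.13, SE 0.25, adjusted p = 2.31e-08), and TNS1 fell by 1.20 (adjusted p = 0.00687, and 0.0600 without the block). RHOV, an atypical small GTPase, went from 57.0, 46.3, 32.2 and 27.6 CPM to 12.6, 9.55, 6.85 and 8.54 CPM (-2.11, SE 0.20, adjusted p = 0.000377).

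Of 19 collagens 4 rose (21.1%) and 3 fell (15.8%), against 2 and 0 without the block. Over all genes tested the shares were 5.59% higher and 7.85% lower. The basement membrane chain COL4A5 stood at 4.17, 2.44, 3.44 and 1.93 CPM against 1.61, 0.646, 0.345 and 0 CPM (-2.26, SE 0.34, adjusted p = 0.000332, and 0.0797 without the block), while the transmembrane collagen COL13A1 rose by 0.77 (adjusted p = 0.00126). Of 30 laminins and matrix glycoproteins 4 fell (13.3%) and 3 rose (10%). Vitronectin, VTN, was DE (-1.96, adjusted p = 0.000760), and TGFBI, an adhesion protein of the matrix, was at -0.79 (adjusted p = 4.82e-05). The hyaluronan degrading protein CEMIP went from 200, 138, 83.4 and 101 CPM to 95.2, 43.4, 32.2 and 39.1 CPM with overlap (-1.35, SE 0.27, adjusted p = 0.0237). Its call was lost without the block (0.112) and without replicate 1, 2 or 4 of DU145KO or 2, 3 or 4 of DU145KO+vector (0.0516 to 0.0820). In DU145KO+α2 the mean of CEMIP was 289 CPM, above DU145KO (131). COL4A5 (0.779 CPM there, 3.00 in DU145KO) and VTN (0.496 and 1.37) were below DU145KO. These levels in DU145KO+α2 were not tested.

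Of 19 metalloproteinases and inhibitors 5 fell (26.3%) and none rose, against 1 lower without the block and 2 to 6 when 1 sample was left out. The membrane-type MMP16 had 13 to 24 reads per sample in DU145KO and 0 to 2 in DU145KO+vector (log2 fold change -3.76, SE 0.47, adjusted p = 1.21e-05), and ADAM9 fell by 0.22 (adjusted p = 0.00732, and 0.257 without the block). Of 6 plasminogen system genes 3 fell and 1 rose. The serpin SERPINB5, maspin, was DE (-1.496, SE 0.23, adjusted p = 0.000209, and 0.0799 without the block), and the protease inhibitor SERPINE2 rose by 0.43 (adjusted p = 0.000100). Of 14 syndecans, glypicans and heparan sulfate enzymes 2 fell and 2 rose (14.3% each), where 7.85% of all genes tested were lower and 5.59% higher. SDC2 stood at 1.32, 1.10, 2.03 and 0.761 CPM against 1.05, 0.503, 0.230 and 0.413 CPM (-1.26, SE 0.38, adjusted p = 0.0325). Its call was lost without the block (0.196) and without replicate 2 or 3 of DU145KO or 2, 3 or 4 of DU145KO+vector (0.0593 to 0.285). The heparan sulfate polymerase EXT1 rose by 0.21 (adjusted p = 0.0143, and 0.113 without the block), a call lost without replicate 1 or 2 of DU145KO or 2 or 4 of DU145KO+vector (0.0537 to 0.0691).

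Growth factor lists held more lower than higher members, as did all genes tested (7.85% lower and 5.59% higher). Of 14 genes of the EGF receptor family and ligands 6 fell (42.9%) and none rose, with ERBB3 (log2 fold change -0.40, adjusted p = 6.20e-05) and ERBB2 (-0.30, adjusted p = 0.00413), receptors of this family, lowest in p. Of 12 genes of the IGF axis 3 fell and 1 rose. The mRNA binding protein IGF2BP1 went from 5.36, 6.05, 5.04 and 4.68 CPM to 2.66, 2.01, 1.84 and 0.964 CPM (-1.47, SE 0.20, adjusted p = 6.20e-05), and IGFBP2, a secreted binding protein, fell by 1.53 with overlap (SE 0.25, adjusted p = 0.0105). Of 21 TGF-beta and BMP genes 4 fell, with the ligand BMP4 DE (-1.04, adjusted p = 0.000142) and FSTL1 at -0.93 (adjusted p = 0.00162). Without the block ERBB2 (0.137), IGFBP2 (0.0913) and FSTL1 (0.0636) lost their calls, and 1 member fell in each of the EGF receptor, IGF and TGF-beta lists. Leaving out 1 sample gave 3 to 5 lower members of the EGF receptor list. In DU145KO+α2 the means were 10.4 CPM for IGF2BP1 and 69.5 CPM for IGFBP2, above those of DU145KO (5.28 and 25.8). BMP4, at 1.88 CPM there, was below DU145KO (6.67). These levels in DU145KO+α2 were not tested.

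Of 34 Wnt and Notch genes 6 fell (17.6%) and 2 rose (5.88%), where 7.85% of all genes tested were lower and 5.59% higher. Without the block 1 was lower and 1 higher, and 2 to 5 were lower when 1 sample was left out. RNF43, a ubiquitin ligase that removes Wnt receptors, went from 15.8, 15.2, 11.7 and 16.4 CPM to 7.54, 6.32, 6.21 and 5.37 CPM (log2 fold change -1.20, SE 0.12, adjusted p = 1.21e-06). The receptor NOTCH3 went from 58.3, 48.4, 39.95 and 33.4 CPM to 32.8, 19.7, 16.5 and 11.2 CPM (-1.19, SE 0.16, adjusted p = 0.00194). The ligand WNT10A was DE with overlap (-1.32, SE 0.32, adjusted p = 0.0100). NOTCH3 (0.0571) and WNT10A (0.242) lost their calls without the block, and WNT10A also without DU145KO+vector replicate 3 (0.0758) or 4 (0.0511). Of 30 ERK feedback and early genes 3 fell (10%) and 1 rose (3.33%), against 7.85% and 5.59% of all genes tested. The phosphatases DUSP4 (-0.84, adjusted p = 0.00483) and DUSP8 (-0.65, adjusted p = 0.00528) were lower. Of 23 YAP/TEAD targets 4 rose (17.4%) and 2 fell, and none passed without the block, with CTGF, a matricellular protein (0.68, adjusted p = 0.000190), and the LIM protein AJUBA (0.33, adjusted p = 0.00308) higher. These 4 lost their calls without the block (DUSP4 0.142, DUSP8 0.191, CTGF 0.0522, AJUBA 0.186).

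The 11 higher DE genes were few, and 7 of them had an average under 1 log2 CPM over the 12 samples. SEMA3E, a secreted semaphorin that repels axons and vessels, had the largest rise: it stood at 0.728, 0.489, 0.983 and 0.820 CPM in DU145KO and at 2.99, 4.52, 4.95 and 6.61 CPM in DU145KO+vector, 6.25-fold higher with a wide gap (log2 fold change 2.64, SE 0.24, adjusted p = 1.60e-07). DU145KO+α2 had 0.948 ± 0.444 CPM (SD, n = 4), a value within the range of DU145KO. Of 26 semaphorins and receptors 6 fell (23.1%, and 3 members without the block) and SEMA3E alone rose, and SEMA3G was DE in the other direction (-1.10, SE 0.16, adjusted p = 0.000100, and 0.109 without the block).

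AP3B2, a neuronal subunit of the AP-3 vesicle adaptor, went from 2.18, 2.32, 1.48 and 1.87 CPM to 7.09, 6.54, 5.75 and 8.95 CPM (log2 fold change 1.85, SE 0.16, adjusted p = 8.60e-08). FGB, the β chain of fibrinogen with the most reads of the 11, went from 22.7, 28.5, 17.9 and 49.5 CPM to 58.0, 55.2, 66.0 and 97.9 CPM (1.25, SE 0.24, adjusted p = 0.0193). The lines did not overlap in FGB, but its call was lost without the block (0.120) and without DU145KO replicate 1 or any DU145KO+vector sample (0.0518 to 0.0716). The gap junction protein GJA3 rose by 1.18 (SE 0.24, adjusted p = 0.00325, and 0.0795 without the block). The other 6, beside ZEB2, were the secreted BMP modulator BMPER (1.19), the anion transporter SLCO2B1 (1.56), LINC01322 (1.10), GNG10 (1.68), MIR641 (1.47) and RMRP (1.13). GNG10 shares 90.5% of its exon bases with the readthrough gene DNAJC25-GNG10, MIR641 had 1 to 12 reads per sample and is a precursor of a microRNA, and RMRP is an RNA without a poly-A tail, so these 3 values are uncertain in poly-A selected libraries. Without the block BMPER (0.0814), SLCO2B1 (0.0655), LINC01322 (0.0590), MIR641 (0.144) and RMRP (0.151) lost their calls. BMPER was also lost without replicate 3 of either line (0.0701 and 0.0783), RMRP without DU145KO+vector replicate 1 (0.0793), and MIR641 without every sample but DU145KO+vector replicate 2 (0.0556 to 0.129).

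Of 44 mitosis genes tested 12 rose (27.3%) and none fell, with 43 of 44 log2 fold changes above 0 and a median of 0.42, and none was DE. Their summed level in replicates 1 to 4 was 1322, 1250, 936 and 2070 CPM in DU145KO and 1382, 1291, 1537 and 2562 CPM in DU145KO+vector. Replicate 4 was thus the highest in both lines, and the ratio of the lines ran from 1.03 in replicate 2 to 1.64 in replicate 3. The kinetochore gene SPC25 rose by 0.93 (SE 0.21, adjusted p = 0.00472) and the spindle factor TPX2 by 0.45 (SE 0.09, adjusted p = 0.00525). The proliferation marker MKI67 stood at 53.7, 66.2, 36.4 and 125 CPM against 56.1, 61.8, 83.8 and 172 CPM and did not pass (0.42, SE 0.24, adjusted p = 0.331). Without the block none of the 44 passed, with TPX2 at an adjusted p of 0.621 and SPC25 at 0.182. Leaving out 1 sample gave 6 to 21 members higher. Of 48 genes of DNA replication 2 rose (4.17%) and 1 fell (2.08%), below the 5.59% and 7.85% of all genes tested, with a median of 0.20. RPA3, a subunit of the single-strand binding complex, rose by 0.40 (adjusted p = 0.000539, and 0.0997 without the block). The histone mRNA binding protein SLBP fell by 0.19 (adjusted p = 0.0174, and 0.240 without the block). SLBP was also lost without DU145KO replicate 2 or replicates 1 or 4 of DU145KO+vector (0.0609 to 0.0907).

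Of 79 cytosolic ribosomal proteins 13 rose (16.5%) and none fell, with 70 of 79 log2 fold changes above 0 and a median of 0.09. RPL35, of the large subunit, stood at 478, 455, 504 and 460 CPM against 680, 587, 645 and 550 CPM with no overlap (0.37, SE 0.06, adjusted p = 0.000267), and RPS21, of the small subunit, rose by 0.32 (adjusted p = 0.000923). Of 75 respiratory chain genes 13 rose (17.3%) and none fell, with a median of 0.12, led by NDUFA4 (0.36, adjusted p = 0.000100) and UQCR11 (0.28, adjusted p = 0.00128). Gene length moved with these values: by the length implied in the deposited RPKM, the shortest of 5 equal classes of genes had 11.7% higher and 4.35% lower calls, and the longest class 4.31% higher and 12.5% lower. Of the ribosomal genes 64 of 79 and of the respiratory genes 58 of 74 with a length were in the shortest class, against 7 of 43 mitosis genes, and the part of length in these results was not tested. Without the block 1 ribosomal and no respiratory gene rose, and RPS21 (0.169), NDUFA4 (0.0743) and UQCR11 (0.137) lost their calls. Leaving out 1 sample gave 5 to 15 ribosomal and 5 to 13 respiratory genes higher.

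Lists of stress responses held few calls, where 7.85% of all genes tested were lower and 5.59% higher. Of 41 translation and ribosome biogenesis factors 2 fell by small amounts, ETF1 (-0.21, adjusted p = 0.00944) and NPM1 (-0.21, adjusted p = 0.0108). Of 38 genes of the unfolded protein and amino acid responses 1 fell, XBP1 (-0.46, adjusted p = 0.000155), and HYOU1 differed by -0.15 (adjusted p = 0.0911). Of 15 heat shock genes 1 rose, HSPA4L (0.29, adjusted p = 0.0355), with HSPE1 at 0.24 (adjusted p = 0.0526). Of 10 metallothioneins none passed, with MT1A at -0.97 (adjusted p = 0.0603) and MT2A at 0.25 (adjusted p = 0.0879). MT2A passed with DESeq2 (0.0449), with voom (0.0496), with the 8 samples alone (0.0176) and without DU145KO replicate 1 (0.0307) or DU145KO+vector replicate 1 (0.0433). HSPE1 passed with DESeq2 size factors (0.0483), with no filter on low counts (0.0246) and without replicate 2 of DU145KO (0.00996) or of DU145KO+vector (0.0258). MT1A passed without replicate 4 of DU145KO (0.0327) or of DU145KO+vector (0.0430). ETF1 (0.178), NPM1 (0.273), XBP1 (0.188) and HSPA4L (0.368) lost their calls without the block. ETF1 was also lost without replicate 1 or 3 of DU145KO+vector (0.0569 and 0.0604), NPM1 without replicate 1 of DU145KO (0.0533) or of DU145KO+vector (0.0612), and HSPA4L without any 1 of the 6 samples of replicates 1, 3 and 4 (0.0802 to 0.141).

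Of 22 p53 targets 1 rose (4.55%), TP53I3 (0.38, adjusted p = 0.00126), and 2 fell (9.09%), among them the death receptor TNFRSF10B (-0.33, adjusted p = 0.00557). Over all genes tested the shares were 5.59% higher and 7.85% lower. Of 30 apoptosis genes 4 fell and 1 rose (1 and 0 without the block), with the inflammatory caspase CASP4 lowest (-0.82, SE 0.08, adjusted p = 8.26e-07). Of 38 NRF2 and antioxidant genes 5 fell and 4 rose (1 and 0 without the block), with the glutathione transferase GSTM2 (-1.32, adjusted p = 1.12e-05) and the aldo-keto reductase AKR1B10 (-1.0004, adjusted p = 0.00593) DE. Of 19 prostate lineage and stem markers 4 fell and 1 rose, with the aldehyde dehydrogenase ALDH3A1 DE (-1.18, adjusted p = 0.00474) and the metalloreductase STEAP2 at -0.34 (adjusted p = 0.00936). Of 36 glycolysis and hypoxia genes 4 fell (11.1%), among them LOXL2 (-0.39, adjusted p = 0.000501) and EGLN3 (-0.65, adjusted p = 0.00483). Of 35 cholesterol and fatty acid synthesis genes 3 fell (8.57%), among them SC5D (-0.45, adjusted p = 0.000188) and ACSL1 (-0.55, adjusted p = 0.000383). Without the block TP53I3 (0.264), TNFRSF10B (0.183), AKR1B10 (0.165), ALDH3A1 (0.0962), STEAP2 (0.119) and EGLN3 (0.125) lost their calls, and STEAP2 also without DU145KO+vector replicate 2 (0.0554) or 4 (0.0522).

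Of 33 lysosome genes 3 fell (9.09%) and 1 rose (3.03%), against 7.85% and 5.59% of all genes tested, and none passed without the block. The protease CTSB stood at 1547 to 2646 CPM in DU145KO and 901 to 1649 CPM in DU145KO+vector (-0.67, SE 0.08, adjusted p = 1.27e-05), and CTSK differed by -0.42 (adjusted p = 0.0109). Of 27 ABC transporters 1 fell, the cholesterol exporter ABCG1 (-0.62, adjusted p = 0.000446), and 1 rose, the drug exporter ABCG2 (0.53, adjusted p = 0.000761). Of 28 aquaporins and ion channels 5 fell and 1 rose (1 and 0 without the block), with the epithelial sodium channel subunit SCNN1A at -0.90 (adjusted p = 4.39e-07) and the potassium channel KCNMA1 at 0.42 (adjusted p = 0.000520). CTSB (0.0778), CTSK (0.362), ABCG1 (0.115) and KCNMA1 (0.117) lost their calls without the block, and CTSK also without DU145KO replicate 2 (0.0530) or DU145KO+vector replicate 3 (0.0760).

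Lists of gene regulators and of genes with restricted expression held 0 to 3 calls in each direction. Over all genes tested 7.85% were lower and 5.59% higher. Of 26 HOX genes 1 rose (HOXB8, 0.41, adjusted p = 0.0260) and 1 fell (HOXD9, -0.61, adjusted p = 0.0390), which is 3.85% in each direction. Of 31 KRAB zinc finger genes 3 rose, among them ZNF586 (0.48, adjusted p = 0.0253) and ZNF100 (0.35, adjusted p = 0.0268). Of 10 CHD remodellers 2 fell, with CHD7 at -0.30 (adjusted p = 0.00229), and CHD5 rose by 0.48 (adjusted p = 0.0275). Of 17 methylation and imprinted genes 2 fell and 1 rose, PLAGL1 at -0.50 (adjusted p = 0.00479) and SGCE at 0.20 (adjusted p = 0.0244). Of 17 histone genes 3 rose and 1 fell, with H2AFZ at 0.25 (adjusted p = 0.00220) and HIST1H2BC at 0.39 (adjusted p = 0.0158). Of 6 cancer-testis genes BRDT rose by 0.29 (adjusted p = 0.0273) and PRAME differed by -0.17 (adjusted p = 0.0724). Of 12 neuroendocrine and neuronal genes 2 fell, BEX2 (-0.74, adjusted p = 0.000591) and NEFM (-0.79, adjusted p = 0.0272), and 1 rose. All of these called genes lost their calls without the block (adjusted p from 0.0829 for NEFM to 0.273 for ZNF100). HOXB8, HOXD9, ZNF586, ZNF100, CHD5, SGCE, BRDT and NEFM were also lost without each of 4 to 7 of the 8 samples (0.0501 to 0.211), and HIST1H2BC without replicate 3 of DU145KO (0.0950) or of DU145KO+vector (0.0949).

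**Figure D4:**
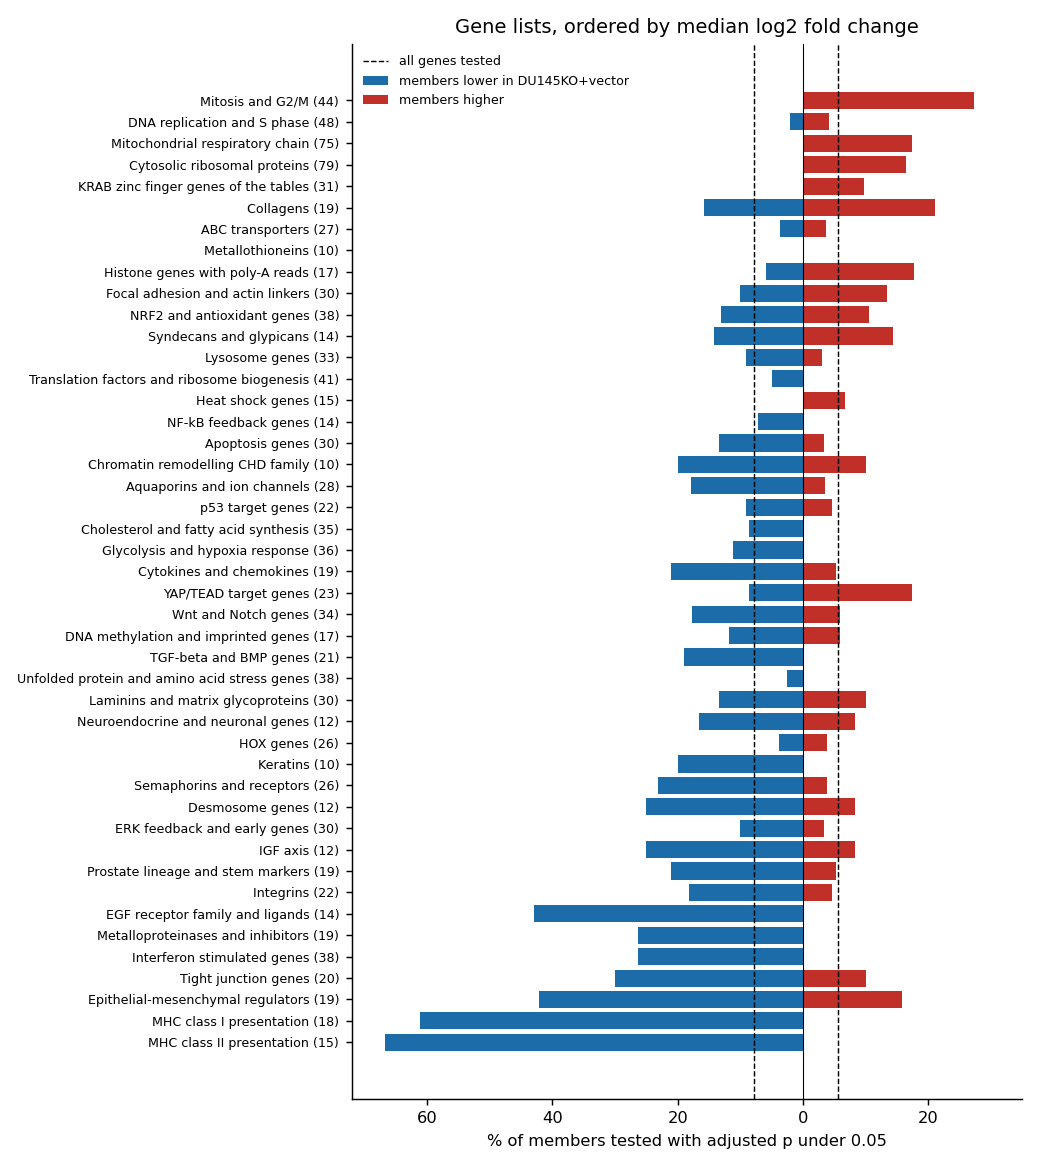
Share of the tested members of each gene list with an adjusted p under 0.05, lower in DU145KO+vector to the left and higher to the right, in percent, for lists with at least 10 members tested (number in brackets), ordered by median log2 fold change. Dashed lines give the shares over all genes tested, 7.85% lower and 5.59% higher; MHC class II and I presentation reach furthest to the left and mitosis furthest to the right.

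The calls were not spread evenly over the genome. On chromosome 9, 28.4% of 624 genes tested were higher and 2.40% lower, with a median log2 fold change of 0.14, and between 30 and 40 Mb 45.1% of 91 genes were higher. On chromosome 5, 22.4% of 652 genes were lower, and from 50 Mb to the end 25.2% of 543, with a median of -0.15. In the first 40 Mb of chromosome 8, 65 of 165 genes were lower (39.4%), with a median of -0.21, against 8.90% on the rest of the chromosome. Chromosome 21 had 15.8% lower, chromosome 4 had 14.8% lower (25.9% in its first 50 Mb), and chromosome 14 had 15.5% higher. On the other chromosomes together, 4.31% of 11734 genes were higher and 6.66% lower. They held 161 of the 207 lower DE genes and 11734 of the 14643 tested genes with a position, so the lower DE genes were not concentrated there. Of 253 bins of 10 Mb with at least 20 genes, 10 had a median above 0.1 and 21 a median below -0.1, within a range of -0.30 to 0.20. Copy number was not measured in these lines, and its part in these values was not tested. Genes named above by function also lie in these regions. ITGA2, ITGA1, ERAP1, ERAP2, CD74, TGFBI, CTNNA1, ETF1 and NPM1 are on chromosome 5 from 50 Mb. CTSB, TNFRSF10B, LOXL2, DUSP4 and ADAM9 are in the first 40 Mb of chromosome 8, and RPL35 is on chromosome 9. The regional part in their values was not tested.

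**Figure D5:**
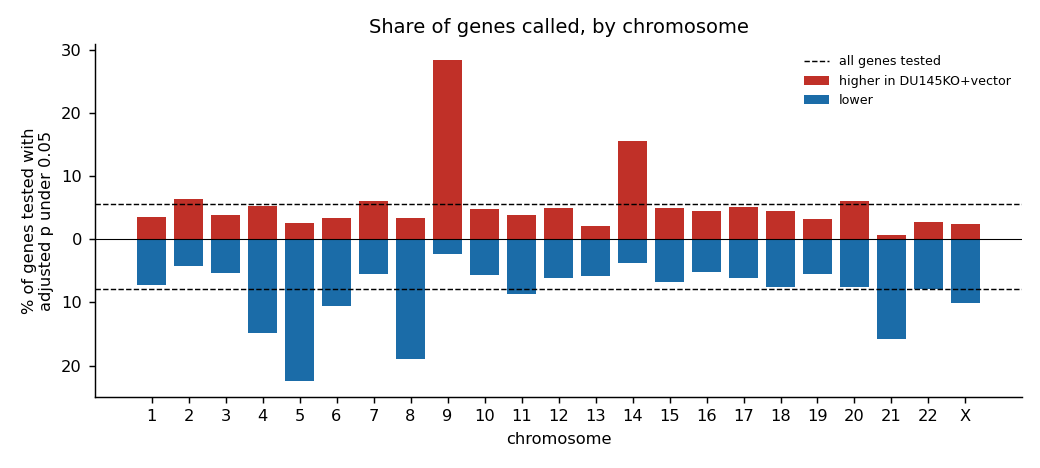
Share of the genes tested on each chromosome with an adjusted p under 0.05, in percent, higher in DU145KO+vector upward and lower downward; dashed lines give the shares over all genes. Chromosomes 9 and 14 stand out upward, and chromosomes 4, 5, 8 and 21 downward.

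In the first 40 Mb of chromosome 8 the most abundant DE genes were MTUS1, CSGALNACT1, STC1 and SCARA5. MTUS1, a microtubule associated protein, went from 102, 92.1, 86.0 and 86.8 CPM to 40.6, 36.2, 31.4 and 27.7 CPM (log2 fold change -1.44, SE 0.07, adjusted p = 8.88e-12). CSGALNACT1, a chondroitin sulfate enzyme, fell by 1.78 (adjusted p = 3.79e-10) and the secreted hormone STC1 by 1.70 (adjusted p = 0.0451). The ferritin receptor SCARA5, also singled out by the study, went from 5.03, 2.32, 2.95 and 2.22 CPM to 2.22, 0.575, 0.805 and 0.827 CPM (-1.44, SE 0.38, adjusted p = 0.0325), and DU145KO+α2 had 16.03 ± 1.68 CPM (SD, n = 4). STC1 was lost without each sample but DU145KO+vector replicate 1 (0.0514 to 0.133), and SCARA5 without the block (0.0524), without replicate 1 or 3 of DU145KO and without replicate 2, 3 or 4 of DU145KO+vector (0.0717 to 0.123).

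In the first 50 Mb of chromosome 4 the DE genes named by the same rule were the lipid flippase ATP8A1 (log2 fold change -1.09, adjusted p = 1.25e-07), the phosphate transporter SLC34A2 (-1.53, adjusted p = 5.14e-05), the protease HTRA3 (-1.54, adjusted p = 0.00283, and 0.297 without the block) and the guidance ligand SLIT2 (-1.27, adjusted p = 0.00566). On chromosome 5 from 50 Mb they were the actin regulator CYFIP2 (-1.29, adjusted p = 4.19e-08), the adhesion receptor ADGRV1 (-1.06, adjusted p = 1.53e-06), the trypsin inhibitor SPINK1 (-1.76, adjusted p = 0.000396, and 0.115 without the block) and MGC32805 (-1.75, adjusted p = 0.0229). The last was lost without the block (0.158) and without replicate 1 of DU145KO or of DU145KO+vector (0.155 and 0.114). On chromosome 9, where most calls were higher, the 4 most abundant DE genes were all lower: SH3GL2 (-1.11, adjusted p = 7.51e-06), the metalloproteinase PAPPA (-1.85, adjusted p = 6.54e-06), the transcription factor DMRT3 (-2.18, adjusted p = 1.01e-05) and TNFSF15. Between 30 and 40 Mb of chromosome 6, where the HLA class II genes lie, the median was -0.03. Of 179 genes there 12.8% were lower, against 7.85% of all genes tested. The 23 lower genes include the HLA genes named above as lower, PSMB8, PSMB9, TAP1 and DDR1, so this share counts members of the lists above again.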

How the data were processed

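Poly-A selected RNA of spheroids of 3 DU145 lines, 4 samples each, was sequenced. The deposited counts are raw reads per gene, made by the authors by alignment to hg38 with TopHat2 2.1.0 and counting of uniquely aligned reads with Subread 1.5.0, per the submitters' notes. The authors also deposited RPKM values, used here only for the gene length they imply. Whether counting used strand is not given in the sources used here.

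Counts were tested with the quasi-likelihood test of edgeR 4.0.16 (R 4.3.3) after filterByExpr (minimum count 10) and TMM normalisation, with all 12 samples in 1 fit, line and replicate number as terms, and Benjamini-Hochberg adjustment over 14732 genes. CPM values use the total count of the tested genes in each library, multiplied by its TMM factor. The scripts were tested on simulated data. Replicate numbers were taken to pair samples because each of the 4 same-number correlations between the lines was above 0.1 (mean 0.401). The mean for other numbers (-0.133) is not separate evidence, because deviations from a line mean cancel over its 4 samples. The gap was smallest for DU145KO+vector replicate 2, at 0.195 with DU145KO replicate 2 and 0.149 with DU145KO replicate 3. Alternatives were DESeq2 1.42.0, voom and limma 3.58.1, other scalings and filters, a test against a fold change of 1.5, no block, the 8 samples alone, and leaving out each sample.

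The members, gene lists and tests were chosen with earlier results of these data known. Named were ITGA2, the DE genes with the largest changes (samples not overlapping, average of at least 1 log2 CPM over the 12 samples), the DE genes with the most reads, the members of each list that were DE or lowest in p, genes selected by the study where DE, and the 4 DE genes with the most reads in each chromosome region. TMEM178B, some further list members and the chromosome regions were picked after their values were seen. Some genes are not reported here.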

Additional observations from a re-analysis of the deposited data

Results flagged for a closer look

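In 24 of 326 groups of 4 samples tested, 1 sample stood apart from the other 3 by more than Dixon's critical value, where chance at 1 in 20 would give 16.3. The value given for each is the gap to the nearest sample over the range of the group.

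In DU145KO, replicate 1 was the high sample in HLA-DRA (0.899; 23.4 CPM against 12.7 to 13.7), HLA-DMA (0.915; 49.2 against 32.1 to 33.5), CD74 (0.857), GBP1 (0.86; 5.36 against 1.76 to 2.26), ATP8A1 (0.901), LOXL2 (0.908), NPM1 (0.837) and RMRP (0.851). Replicate 4 was high in KCNMA1 (0.951) and ZNF100 (0.901), and replicate 2 was low in EXT1 (0.875).

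In DU145KO+vector, replicate 1 was the high sample in S100A9 (0.932), TREM1 (0.855; 1.11 CPM against 0.215 to 0.345), TNS4 (0.881), ITGB1 (0.926), AKR1B10 (0.856), CSGALNACT1 (0.83) and SCARA5 (0.847), and the low sample in ABCG2 (0.945). Replicate 2 was high in MT2A (0.838), ABCG1 (0.908) and CD14 (0.843), replicate 3 was low in TNS1 (0.844), and replicate 4 was high in TPX2 (0.869; 128 CPM against 56.8 to 66.1).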

How the results depend on the processing

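With no replicate block, 4 DE genes were higher and 119 lower (11 and 207 with it), all 123 of them also DE with it, and at any fold change 73 genes were higher and 271 lower (823 and 1157 with it), the lowest of these calls under any alternative run. With at least 10 counts in each of the 8 samples the DE genes were 5 higher and 90 lower, with fewer genes tested (13541), and a test against a fold change of 1.5 gave 4 and 99. Leaving out 1 sample gave 10 to 18 higher and 165 to 217 lower DE genes, and 367 to 772 higher and 675 to 1101 lower calls at any fold change. The lowest of these last counts, 367 and 675, were reached without DU145KO+vector replicate 3, and without DU145KO replicate 1 they were 502 and 762. The higher calls also fell to 544 without DU145KO replicate 2, 539 without DU145KO replicate 3, 492 without DU145KO+vector replicate 1 and 528 without DU145KO+vector replicate 2. The log2 fold change of ITGA2 was -0.23 with no replicate block (adjusted p = 0.534), with DESeq2 (0.0668), with the 8 samples alone (0.0572) and with voom (0.0599), none past the threshold, and -0.27 to -0.17 when 1 sample was left out. No DE gene changed sign under any alternative run. Of the 148 named genes that passed, 63 did so under every alternative, 83 were lost without the block and 35 without at least 1 sample. Genes with few reads limit the precision: 111 lower DE genes had a mean under 1 CPM in DU145KO+vector. Where a call was lost by leaving out a sample, the cause was not tested.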
